A study of Mus musculus with 2 samples.

Results

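The 9 genes Hdac1 to Hdac9 encode histone deacetylases of classes I and II, and all 9 were found by symbol among the 32285 genes listed for single-cell RNA sequencing of developing hair follicles (HFs). One library was labelled PADI4 WT and one PADI4 cKO, and each was made from live tdTomato-positive cells of postnatal day 1 mouse back skin, sorted after the epidermis had been peeled from the dermis that holds the growing HFs. Both carried a K14-Cre transgene, which is active in the keratinocytes of the skin, and the tdTomato reporter; the conditional knockout (cKO) was also Padi4 fl/fl, so that Padi4 is lost where Cre is active, while the sample notes name K14-Cre Padi4 fl/fl mice for both libraries. Each library was numbered replicate 1 of its genotype, and the number of mice behind each was not given in the sources used here. With 1 library per genotype there was no test of the genotypes, and every interval below covers the counting of molecules alone.

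Histone deacetylases remove acetyl groups from lysines of histones and other proteins. The class I enzymes HDAC1, HDAC2, HDAC3, and HDAC8 are mainly nuclear: HDAC1 and HDAC2 are close paralogs that share the NuRD, Sin3, and CoREST corepressor complexes, HDAC3 is the catalytic subunit of the NCoR/SMRT corepressors, and HDAC8 works outside these complexes and deacetylates cohesin. The class IIa enzymes HDAC4, HDAC5, HDAC7, and HDAC9 bind MEF2 transcription factors and shuttle between nucleus and cytoplasm under the control of kinases and 14-3-3 proteins, and HDAC6 of class IIb is a cytoplasmic deacetylase of tubulin. HDAC10, also of class IIb, is not among the 9 and was counted with the other deacetylases. Hdac1 and Hdac2 are together required for epidermal and HF development.

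RefSeq promoter windows of 300 bases (250 before and 50 from the transcription start, GRCm38.p6) were on hand for 7 of the 9 genes. Shown here are those of a pair of well-detected genes with unlike windows, Hdac4 (chr1:92180292-92180591, minus strand) and Hdac8 (chrX:102505109-102505408, minus strand), and of the gene with the fewest UMIs in the epithelium, Hdac9 (chr12:34917046-34917345, minus strand). Capitals mark the GC box GGGCGG and the CCAAT box, each on either strand (CCGCCC and ATTGG), overlaps included.
Hdac4: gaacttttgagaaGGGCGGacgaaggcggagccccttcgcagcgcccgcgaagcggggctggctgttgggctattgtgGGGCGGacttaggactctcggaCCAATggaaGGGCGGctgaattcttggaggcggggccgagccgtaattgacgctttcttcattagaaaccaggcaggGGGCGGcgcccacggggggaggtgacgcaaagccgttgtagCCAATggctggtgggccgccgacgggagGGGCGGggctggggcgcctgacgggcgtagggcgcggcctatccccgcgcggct
Hdac8: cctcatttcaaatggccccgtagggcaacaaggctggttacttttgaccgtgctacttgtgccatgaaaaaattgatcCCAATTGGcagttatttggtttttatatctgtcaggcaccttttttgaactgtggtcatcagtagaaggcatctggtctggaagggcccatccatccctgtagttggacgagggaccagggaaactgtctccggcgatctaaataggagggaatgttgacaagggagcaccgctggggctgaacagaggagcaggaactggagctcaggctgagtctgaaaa
Hdac9: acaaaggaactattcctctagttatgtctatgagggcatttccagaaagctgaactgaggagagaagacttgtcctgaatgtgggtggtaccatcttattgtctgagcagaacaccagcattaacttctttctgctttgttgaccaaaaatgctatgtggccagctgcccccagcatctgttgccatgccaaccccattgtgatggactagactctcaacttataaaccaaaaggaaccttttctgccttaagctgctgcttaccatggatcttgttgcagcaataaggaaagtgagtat
The Hdac4 window held 32 CpG dinucleotides, 5 GC boxes, and 2 CCAAT boxes. The Hdac8 window held 6 CpG dinucleotides, 0 GC boxes, and 2 CCAAT boxes that overlap as a palindrome, and that of Hdac9 held 0 of each; its other window held 3 CpG dinucleotides and neither motif. Over all 32851 windows the median was 7 CpG dinucleotides, and 35.7% held a GC box and 37.4% a CCAAT box. Hdac2 (36 CpG dinucleotides), Hdac5 (18), and Hdac6 (20) also lay above that median, and the 4 windows of Hdac7 held 5, 31, 35, and 6.

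The genes lie on 8 chromosomes of the GRCm38 assembly, of which mm10, the build in the submitters' processing notes, is another name. Hdac1 (ENSMUSG00000028800) is at chr4:129516104-129542713, Hdac2 (ENSMUSG00000019777) at chr10:36974544-37001889, Hdac3 (ENSMUSG00000024454) at chr18:37935844-37955016, Hdac5 (ENSMUSG00000008855) at chr11:102194432-102230166, and Hdac7 (ENSMUSG00000022475) at chr15:97792664-97844502. Hdac6 (ENSMUSG00000031161, chrX:7930120-7947889) and Hdac8 (ENSMUSG00000067567, chrX:102284639-102505359) are X-linked. Hdac4 (ENSMUSG00000026313, chr1:91928779-92195699) and Hdac9 (ENSMUSG00000004698, chr12:34047580-34917095) span 267 and 870 kb, compared with 19.2 kb for Hdac3 and 26.6 kb for Hdac1. Of the 31-base stretches in the last 500 bases of their transcripts, where 3′ reads fall, at most 0.557% occurred in another gene, so that nearly all reads there can be assigned to 1 paralog.

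After filtering, 7994 PADI4 WT and 7357 epithelial cells of the other library remained, with a median of 14683.5 and 16205 unique molecular identifiers (UMIs, each a count of 1 captured molecule) per cell. The kept cells of both libraries shared 14 barcodes. The targeted gene did not separate them: Padi4 had 98 UMIs in the PADI4 WT cells and 92 in the others (log2 ratio −0.12, interval −0.54 to 0.31), and 3′ counts need not show the deletion of an internal part, so the second is called the library labelled PADI4 cKO throughout. They did differ in the sex of the cells. Xist without UMIs of 4 Y-linked genes was seen in 26.0% of the PADI4 WT cells and 98.3% of the cells labelled PADI4 cKO, and Y-linked UMIs without Xist in 62.4% and 0%, so results are also given for the cells with Xist only. Clusters were named from marker genes, as outer root sheath (ORS)-like, germinative layer (GL)-like, inner root sheath (IRS)-like, lower proximal cup (LPC)-like, cortex (Cx)-like, and sebaceous gland (SG)-like. Those without a clear name keep a number and are described by their leading genes. In all, 13 groups had at least 50 cells in each library. Cluster 9 (Wfdc18) stood apart, since its PADI4 WT cells had a median of 8160.5 UMIs and those of the other library 26655.5, where 66.7% of them were called doublets; the counts between the libraries are therefore also given without it.

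In the epithelium as a whole, Hdac1, Hdac2, Hdac4, and Hdac8 were detected at the highest levels, Hdac3 came next, Hdac5, Hdac6, and Hdac7 were low, and Hdac9 was close to undetected. Levels are given as CPM, the UMIs of a gene per 1000000 UMIs of the group. They count captured 3′ ends, 1 count per molecule whatever the length of the gene; whether reads in introns were counted was not given, and its part in the levels of the long genes was not tested. Hdac2 was at 119 CPM (interval 117 to 121) in the PADI4 WT library and 118 CPM (116 to 120.0) in the library labelled PADI4 cKO. Hdac4 was at 118 and 122 CPM and Hdac8 at 98.7 and 100.3 CPM. Hdac1 was at 119 CPM (117 to 121) and 146 CPM (144 to 148), and its 2 intervals lay farther apart than those of the other 3.

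Of the less abundant members, Hdac3 was at 46.5 and 43.9 CPM. The class IIa genes Hdac5 and Hdac7 were at 20.6 and 20.5 CPM and at 15.4 and 16.2 CPM, and Hdac6 at 11.5 and 11.2 CPM. Hdac9 had 104 UMIs (0.817 CPM) and 179 UMIs (1.38 CPM) in all. In droplets with under 100 UMIs, which hold free RNA, Hdac1 was at 117 CPM and Hdac2 at 114 CPM in the PADI4 WT library, with intervals that held the level in cells. In the other library Hdac1 was at 129 CPM (interval 121 to 137), below the cells, and Hdac2 at 134 CPM (125 to 142), above them. Hdac4 (65.5 and 70.0 CPM) and Hdac8 (51.5 and 47.6 CPM) were lower in these droplets than in the epithelial cells of both libraries, and Hdac9 (8.70 and 7.26 CPM) was higher.

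**Figure D1:**
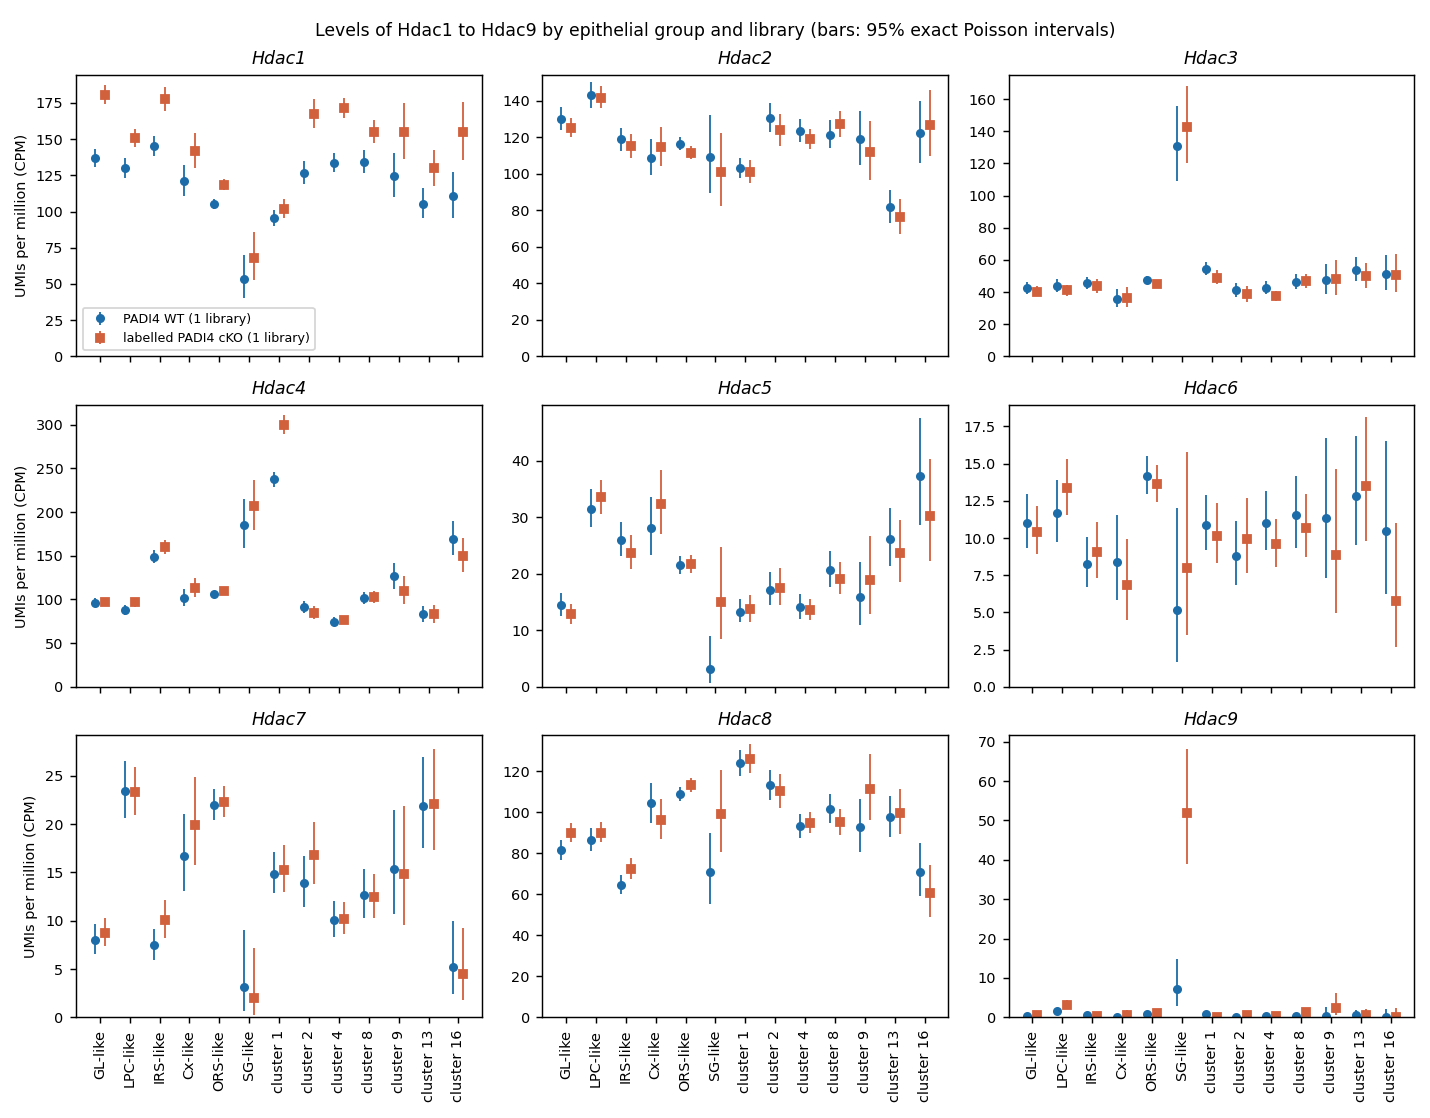
Level of each member (vertical axes, CPM, linear and from 0) in the 13 groups (horizontal axis) for the PADI4 WT library (circles) and the library labelled PADI4 cKO (squares), with 95% exact Poisson intervals. Hdac3 stands out in the SG-like cells, Hdac4 in cluster 1, and Hdac9 in the SG-like cells, whereas Hdac1 lies higher in the library labelled PADI4 cKO in each group.

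The class I genes differed in where they were highest. Hdac1 was highest in the IRS-like (145 CPM) and GL-like cells (137 CPM) for PADI4 WT, and the same pair led, in the other order, in the library labelled PADI4 cKO (177 and 181 CPM). The SG-like cells were lowest, with 53.6 CPM (interval 40.0 to 70.3) and 68.0 CPM, a 2.71-fold and a 2.66-fold range between groups. Next lowest was cluster 1, which was led by Aldh3a1, Sema3a, Lpl, and Pparg and carried markers of the upper HF (95.5 and 102 CPM). Between these ends the order was not resolved: of the 12 pairs of neighbors in it, 2 had separate intervals in either library.

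Hdac2 varied less. It was highest in the LPC-like cells, named after the progenitors at the base of the HF (143 and 142 CPM), and lowest in cluster 13, epithelial cells led by Olfml2b, Tagln, Krt19, and Acta2 (82.0 and 76.4 CPM). Neighbors in the order had separate intervals in 1 and 2 of 12 pairs. In the SG-like cells, where Hdac1 was lowest, Hdac2 was at 109 and 101 CPM. The LPC-like cells reached 5 of 7 LPC markers (Ptch1, Edar, Sp5, Shh, and Wnt10b). Lgr5, of the same list, was instead reached in cluster 8 and in clusters 7 and 15 of the ORS-like cells. In cluster 7 Hdac2 was at 136 and 126 CPM.

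**Figure D2:**
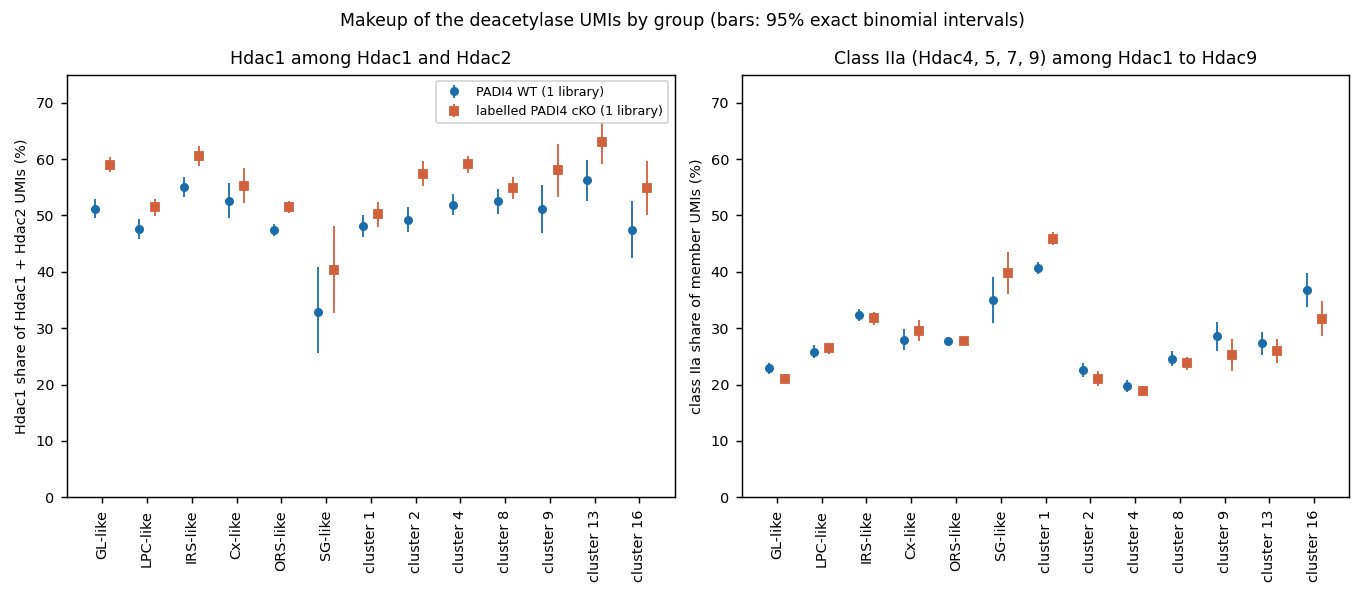
Left, share of Hdac1 among the UMIs of Hdac1 and Hdac2; right, share of the class IIa genes among the UMIs of all 9 members, by group (vertical axes in percent, from 0), with 95% exact binomial intervals. The Hdac1 share was lowest in the SG-like cells and higher in the library labelled PADI4 cKO in each of the 13 groups, and the class IIa share was highest in cluster 1.

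The balance of these paralogs followed. Hdac1 made up 49.9% of the UMIs of the pair in the PADI4 WT epithelium (interval 49.4 to 50.5%) and 55.2% (54.7 to 55.8%) in the library labelled PADI4 cKO. In the SG-like cells it made up 32.9% and 40.2%, in the IRS-like cells 55.0% and 60.6%, and in cluster 13, where Hdac2 was lowest, 56.2% and 62.9%. The share was higher in the library labelled PADI4 cKO in 13 of 13 groups, and the intervals of the libraries did not overlap in 6 of the 13. The groups share the same pair of libraries and are not repeats, and like counts for other gene pairs were not computed. The share is formed from the same UMIs as the levels of Hdac1 and Hdac2 and is not a separate result.

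Hdac3 was the member with the sharpest single peak among the detected genes. The SG-like cells had 131 CPM (interval 109 to 156; 127 UMIs in 54 cells) in the PADI4 WT library and 143 CPM (121 to 168; 143 UMIs in 54 cells) in the library labelled PADI4 cKO. In the other 12 groups the level ran from 36.0 to 54.5 CPM and from 36.6 to 50.9 CPM, with the Cx-like cells, which form the hair shaft cortex, at the bottom in both. Called doublets made up 1.85% and 11.1% of the SG-like cells, and without them Hdac3 was at 133 and 158 CPM. Only the step from the SG-like cells to the next group separated neighbors, in both libraries.

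Hdac8 ran from cluster 1 (124 and 126 CPM) and, in the PADI4 WT library, cluster 2 (113 CPM) down to the IRS-like cells (64.7 and 72.4 CPM) and cluster 16, which was led by Krt75 and Wnt11 (71.0 and 60.6 CPM). Cluster 2 was led by Ednra, Krtap8-1, and Krt90. Within the ORS-like cells Hdac8 split the clusters in both libraries: clusters 11 and 15 had 145 and 146 CPM in the PADI4 WT library and 146 and 144 CPM in the other, whereas clusters 6 and 7 had 103 and 84.5 CPM for PADI4 WT and, in the other library, 98.9 CPM in cluster 6 and a like level in cluster 7 (interval 93.8 to 104 CPM). Hdac1 split them the other way, with 109 and 119.7 CPM in clusters 6 and 7 and 85.5 and 77.2 CPM in clusters 11 and 15 of the PADI4 WT library, and 129 and 130.3 CPM and 93.8 and 92.6 CPM in the other.

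The class IIa genes differed more between groups than Hdac2 did. Hdac4 was highest in cluster 1, with 237 CPM (interval 229 to 246) in the PADI4 WT library and 299.7 CPM (289 to 311) in the library labelled PADI4 cKO. The SG-like cells came next (185 and 207 CPM), followed by cluster 16 (169 and 150.2 CPM) and the IRS-like cells (149 and 160.1 CPM). The lowest level was in cluster 4, which was led by Nr4a3, Dcn, Shh, and Wnt10b (74.6 and 76.6 CPM), a 3.18-fold and a 3.91-fold range. A small cluster below the minimum of 50 cells, cluster 19, had still more Hdac4 in both libraries, 424 CPM (361 to 494) in 39 cells and 421 CPM (373 to 474) in 60 cells. It was led by Smoc1, Crabp2, and Unc5d, held ORS and upper HF markers alike, and was singled out after its values were seen.

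Hdac5 and Hdac7 were both high in the LPC-like cells. Hdac5 was at 31.5 and 33.5 CPM there, at 28.1 and 32.4 CPM in the Cx-like cells, and at 37.3 and 30.3 CPM in cluster 16, but at 13.3 and 13.8 CPM in cluster 1, where Hdac4 was highest. In the SG-like cells it was at 3.09 CPM (3 UMIs) and 15.0 CPM (15 UMIs). Hdac7 was at 23.5 and 23.3 CPM in the LPC-like cells, 22.0 and 22.3 CPM in the ORS-like cells, and 21.9 and 22.1 CPM in cluster 13. In the GL-like and IRS-like cells it was at 8.03 and 7.44 CPM in the PADI4 WT library and at 8.77 and 10.0 CPM in the other. No pair of neighbors in the order of Hdac7 had separate intervals, although the ends did.

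Over the groups, the class IIa genes made up 19.7% (cluster 4) to 40.7% (cluster 1) of the UMIs of the 9 genes in the PADI4 WT library, and 18.9% to 45.8% in the same pair of clusters in the other. The sum of all 9 ran from 484 to 654 CPM and from 499 to 717 CPM, so the total varied less than its makeup.

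Hdac6 was low in every group, with a 2.75-fold and a 2.35-fold range. The lowest groups held 5 UMIs (SG-like, PADI4 WT) and 9 UMIs (cluster 16, the other library). The ORS-like cells were highest (14.2 and 13.6 CPM), cluster 13 was next, and no neighbors in the order had separate intervals. With 1463 and 1452 UMIs in all, differences between most groups were not detectable at this depth. The ORS-like interval lay above the IRS-like one in both libraries. It was 12.9 to 15.5 against 6.73 to 10.1 CPM for PADI4 WT, and 12.4 to 14.9 against 7.30 to 11.1 CPM in the other.

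Hdac9 was detected in few epithelial cells. Free RNA could make up no more than 7.84% of the UMIs in cells of the PADI4 WT library and 6.73% in the other, which would give up to 0.682 of the 0.817 CPM and 0.489 of the 1.38 CPM. In cluster 16, 0 of 101 and 0 of 97 cells had a UMI, which allows shares of cells with a UMI of up to 2.97% and 3.09% (3 cells of each total). The SG-like cells had 7 UMIs (7.21 CPM) in 2 of 54 cells and 52 UMIs (52.0 CPM) in 6 of 54 cells, of which 21 UMIs were in 1 cell. The 5 fibroblast markers of the list used here summed to 6.18 and 5.00 CPM in these cells, with 1 and 4 of the 5 at 0, and the 52 UMIs were all in cells not called doublets. The LPC-like cells had 16 UMIs in 7 cells and 48 UMIs in 19 cells. Outside the epithelium, the few fibroblast-like cells that passed the sort had 116 CPM of Hdac9 (50 cells) and 44.8 CPM (26 cells), beside 3340 and 5175 CPM of those markers.

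The highest group was the same in both libraries for 7 of the 9 genes and the lowest for 6. The like share over all genes was not computed. Of the 6, Hdac9 was at 0 UMIs in both cluster 16 and the Cx-like cells of the PADI4 WT library. Hdac7 had 3 and 2 UMIs in its lowest group, the SG-like cells. Spearman's rho between the libraries over the 13 groups was 0.97 for Hdac4 and Hdac7, 0.96 for Hdac3, 0.92 for Hdac1 and Hdac5, 0.85 for Hdac2, 0.79 for Hdac6, 0.77 for Hdac8, and 0.47 for Hdac9, as a description of points that share libraries and depth. Among the members, Hdac1 and Hdac3 ran in opposite directions over the groups (Pearson r −0.93 and −0.84, 13 groups), with the SG-like cells at the end of both.

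By the same measure, r of log2(CPM + 1) over the 13 groups among 8898 genes with a mean of at least 10 CPM over the groups in each library, the genes with the pattern most like Hdac1 were Asf1b, a histone chaperone (0.96 and 0.98), Esco2, a cohesin acetyltransferase (0.96 and 0.97), and Kif11, a mitotic kinesin (0.96 and 0.98). Closest to Hdac2 were Rhno1 (0.84 and 0.82), Fkbp4, a co-chaperone of steroid receptors (0.80 and 0.85), and Sbk1 (0.80 and 0.89). Closest to Hdac3 were Psme2, a proteasome activator subunit (0.98 and 0.99), Secisbp2l (0.98 and 0.97), and Tbc1d20 (0.97 and 0.98). Hdac3 was at 131 and 143 CPM in the SG-like cells and at most 54.5 and 50.9 CPM elsewhere, so that group weighs heavily in these r. The SG-like cells also stood apart for Hdac1, at 53.6 and 68.0 CPM against 95.5 and 102 CPM in cluster 1, the next lowest group. Values without the SG-like cells were not computed for any member. Hdac4 was closest to Ahr, the aryl hydrocarbon receptor (0.89 and 0.94), Krtdap, a keratinocyte differentiation gene (0.89 and 0.89), and Pcyox1 (0.86 and 0.88). Hdac5 was closest to Cbarp, Xpa, and Pcbp4, Hdac7 to Zfp428, Ski, and Tmsb15b2, and Hdac8 to Tnrc18, Brf1, and Stx6, with the lower r of the 2 libraries from 0.74 to 0.90. Hdac6, whose mean over the groups fell just short of 10 CPM in the library labelled PADI4 cKO, and Hdac9 were not matched.

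Cells were also set apart by the cell cycle phase called from published S and G2M gene lists, which hold none of the 9 members. Hdac1 was at 82.2 CPM in the cells called G1, 122 CPM in those called S, and 138 CPM in those called G2M in the PADI4 WT library, and at 96.4, 143, and 179 CPM in the other, 1.68-fold and 1.86-fold from G1 to G2M. Hdac2 differed less, with 95.9 and 129 CPM in G1 and G2M cells (1.34-fold) and 97.6 and 127 CPM (1.30-fold). Within the 6 groups of each library that had 50 cells of both phases, Hdac2 was higher in G2M than in G1 cells in 6 of 6 in each library and Hdac1 in 5 and 6 of 6, beside 50.1% and 49.5% of all pairs of a gene and a group. The cells called G1 also held fewer UMIs, a median of 10933 against 18636 in the G2M cells of the PADI4 WT library, and the part of depth was not tested.

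Hdac8 and Hdac4 went the other way over all epithelial cells. Hdac8 was at 133 CPM in G1 and 83.8 CPM in G2M cells of the PADI4 WT library (131 and 88.6 CPM in the other), and it was lower in G2M cells within 6 of 6 groups in both libraries. Hdac4 was at 146 and 104 CPM (158 and 108 CPM), but within groups it was higher in G2M cells in 2 and 3 of 6. Hdac3 was at 44.9 and 47.0 CPM (44.3 and 42.6 CPM) over all cells, but within groups it was higher in G2M cells in 4 and 6 of 6, as in the ORS-like cells of the PADI4 WT library, with 39.2 CPM in G1 (interval 35.6 to 43.1) and 53.1 CPM in G2M cells (48.9 to 57.5). The libraries also differed in phase calls, with 35.3% G1, 28.9% S, and 35.8% G2M cells in the PADI4 WT library and 33.8%, 36.8%, and 29.4% in the other.

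**Figure D3:**
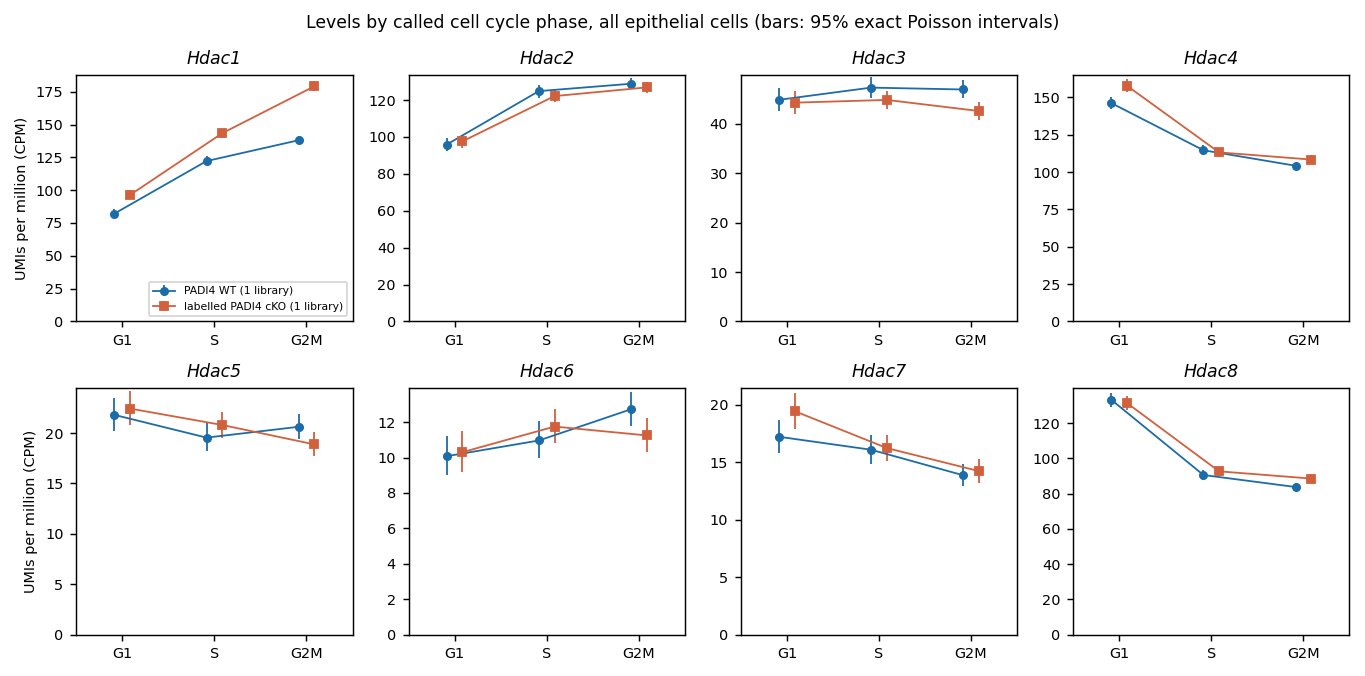
Level of Hdac1 to Hdac8 (vertical axes, CPM, from 0) in all epithelial cells by called phase (G1, S, G2M) in the PADI4 WT library (circles) and the library labelled PADI4 cKO (squares), with 95% exact Poisson intervals. Hdac1 and Hdac2 climb from G1 to G2M, Hdac4 and Hdac8 descend, and Hdac1 of the library labelled PADI4 cKO lies above the PADI4 WT value in all 3 phases.

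The comparison between the libraries asks whether deacetylase mRNA differed where Padi4 was targeted. The study itself reports Hdac1 as up-regulated in its GL, medulla, and Cx clusters of these cells, so its direction here is a description. The study's cutoff was a log2 fold change above 0.5 with a test over single cells, a measure unlike the ratios here. The GL-like and Cx-like ratios of Hdac1 here were 0.40 and 0.23, and no group was named medulla. Cluster 2 reached 4 medulla markers (Mt4, Foxq1, Padi3, and Krtap8-1) beside 5 GL markers, and its Hdac1 ratio was 0.40 (interval 0.27 to 0.52). Of 117 pairs of a member and a group, 94 had at least 100 UMIs over both libraries and were compared. None of the 94 had a log2 ratio (library labelled PADI4 cKO over PADI4 WT) above 0.5 and none below −0.5, beside 1.97% and 2.58% of the 115441 pairs of all genes and groups. The counting interval lay above 0 in 18 of the 94 pairs and below 0 in 1, beside 11.5% and 11.8% of all pairs, and 11 of the 18 were those of Hdac1. Without cluster 9 these counts were 17 and 1 of 89. The median log2 ratio of all genes in a group lay between −0.04 and 0.02.

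Hdac1 was higher in the library labelled PADI4 cKO in 13 of 13 groups, and without cluster 9 in 12 of 12, by 0.30 on the log2 scale over the epithelium (interval 0.26 to 0.33), above 95.2% of the 14900 genes compared, of which 21.2% had an interval above 0 and 27.3% one below. The groups share the same pair of libraries and are not repeats. The share of all genes with the same sign in every group was not computed. The ratio was 0.48 in cluster 16 (111 and 155 CPM), 0.40 in the GL-like cells (137 and 181 CPM), 0.40 in cluster 2 (127 and 167 CPM), and 0.36 in cluster 4 (134 and 171 CPM). In the LPC-like cells it was 0.21, with 1403 and 2245 UMIs, and in the ORS-like cells 0.17 (105 and 119 CPM). The interval held 0 in the SG-like cells (0.34, −0.20 to 0.89) and in cluster 1 (0.09, −0.03 to 0.21). Cells thinned to 2000 UMIs gave a value below 0 in 3 groups, SG-like (−0.36), cluster 1 (−0.05), and cluster 8 (−0.01), and a minimum of 4000 UMIs gave −0.01 in cluster 1, with intervals that held 0 in each case. Other values moved by over 1.5 times. Thinning gave 0.36 in the LPC-like cells, 0.57 in the Cx-like cells, 0.59 in cluster 13 (0.30 without it), 0.95 in cluster 9 (0.31), and 0.10 in cluster 16 and in the ORS-like cells. The LPC-like value was 0.42 (0.25 to 0.60) where single cells were gated by markers and 0.12 (−0.05 to 0.29) in cells with Xist only, the IRS-like value fell from 0.29 to 0.18 with Xist only, that of cluster 13 was 0.17 with a minimum of 1000 UMIs, and that of cluster 1 was 0.01 without doublets. By phase, the ratio was 0.23 in the G1 cells, 0.23 in the S cells, and 0.38 in the G2M cells.

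**Figure D4:**
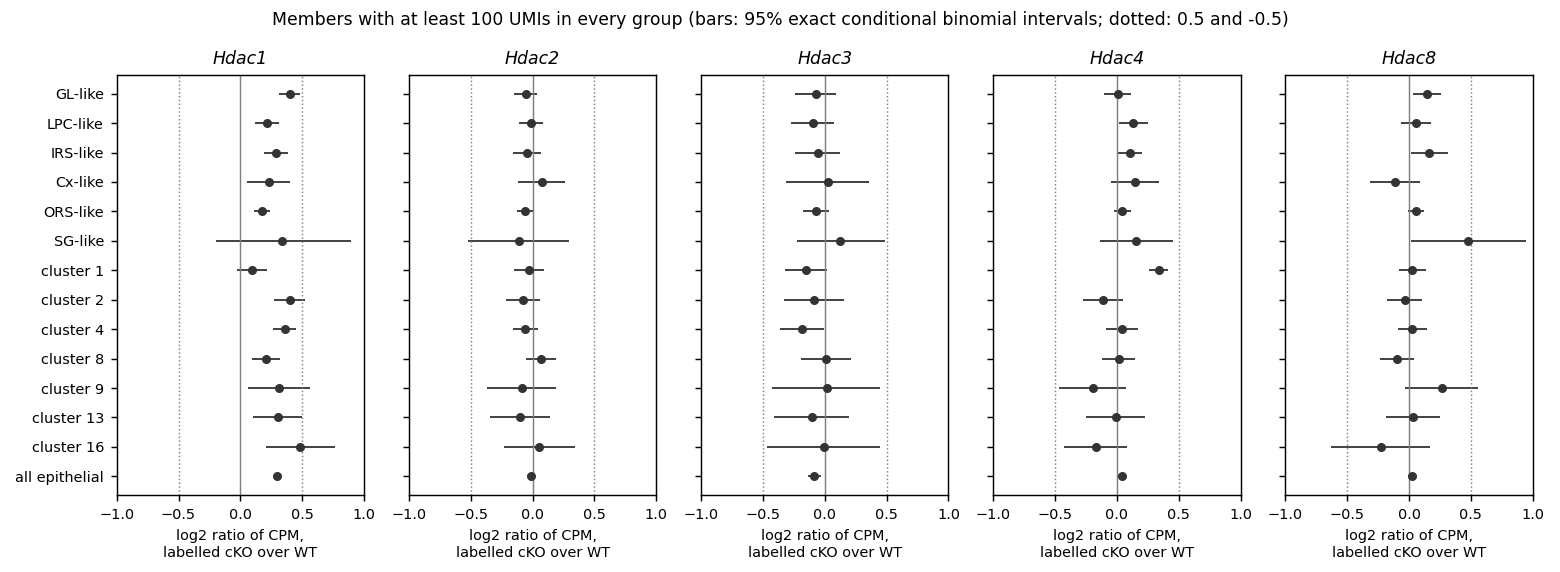
Log2 ratio of CPM, library labelled PADI4 cKO over PADI4 WT (horizontal axes), in 13 groups and all epithelial cells for the 5 members compared in every group, with 95% exact conditional binomial intervals and dotted lines at 0.5 and −0.5. The Hdac1 values all lie to the right of 0, those of Hdac2 and Hdac3 lie around or just left of 0, and Hdac4 stands out in cluster 1.

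Hdac2, its paralog, did not follow. Its ratio was −0.01 over the epithelium (interval −0.04 to 0.02), it was positive in 3 of 13 groups, and the interval held 0 in all of them, with values from −0.11 to 0.07. Hdac3 was at −0.09 (−0.14 to −0.03), with 1 interval below 0, in cluster 4 (42.7 and 37.5 CPM). Its value over the epithelium turned to 0.06 (−0.09 to 0.22) with cells thinned to 2000 UMIs, and in cells with Xist only it was −0.07 (−0.16 to 0.01). Hdac5, Hdac6, and Hdac7 were at −0.01, −0.04, and 0.08, and of their intervals in the groups with enough UMIs to be compared 1 left out 0, for Hdac7 in the IRS-like cells (0.43, 0.01 to 0.86; 88 and 102 UMIs). Hdac8 was at 0.02 (−0.01 to 0.06), with intervals above 0 in the GL-like (0.14), IRS-like (0.16), and SG-like cells (0.47, 0.02 to 0.94). Hdac9 was the only member past 0.5 over the epithelium (0.76, 0.40 to 1.12), where 1.58% of 14900 genes lay above 0.5 and 3.58% below −0.5, and it had too few UMIs for a comparison in any single group. Of its 179 UMIs in the library labelled PADI4 cKO, 52 were in the SG-like and 48 in the LPC-like cells, and in cells with Xist only the ratio was 0.36 (−0.18 to 0.98).

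Hdac4 was at 0.04 over the epithelium (0.01 to 0.08), but at 0.34 (0.26 to 0.41) in cluster 1. The epithelial value was 0.13 (0.07 to 0.18) in cells with Xist only and 0.13 (0.04 to 0.22) with thinning. In cluster 1 the level also differed between cells with Xist and cells with Y-linked UMIs, which come from different mice, so that sex and mouse cannot be told apart. Within the PADI4 WT library, the cluster 1 cells with Xist only had 303 CPM of Hdac4 and those with Y-linked UMIs only 231 CPM (log2 ratio 0.40, interval 0.26 to 0.53). Between the libraries, the cells with Xist only differed by −0.02 (−0.15 to 0.12) in cluster 1. Of the other 9 groups with enough such PADI4 WT cells, 1, the ORS-like, had an interval that left out 0, in the opposite direction (−0.14, −0.26 to −0.03), beside 7.55% and 9.59% of all pairs of a gene and a group with an interval above and below 0. Among Xist cells, Hdac4 differed between the libraries in the ORS-like (0.17, 0.07 to 0.28) and IRS-like cells (0.16, 0.00 to 0.32).

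Hdac1 was also compared in these cells. Among the cells with Xist only, it was at 125 CPM in the PADI4 WT library and 145 CPM in the library labelled PADI4 cKO (0.22, 0.17 to 0.27). Its ratio was positive in 10 of 10 groups, which again share the same pair of libraries. The interval lay above 0 in 6 of them, beside 9.5% of all pairs above 0 and 7.67% below, among them cluster 2 (0.46), the Cx-like cells (0.39), cluster 4 (0.37), and the GL-like cells (0.32). In the ORS-like cells it was 0.04 (−0.06 to 0.14), and there the PADI4 WT cells with Xist only were themselves above those with Y-linked UMIs (0.20, 0.09 to 0.30). Over the epithelium, the latter difference was 0.12 (0.06 to 0.17).

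The X-linked Hdac8 was lower in the Xist cells than in the cells with Y-linked UMIs of the PADI4 WT library, 88.6 against 103 CPM (−0.21, −0.27 to −0.15), in 8 of 10 groups and with 3 intervals below 0, in cluster 8 (−0.51), the ORS-like cells (−0.31), and the IRS-like cells (−0.30). For this comparison, 9.59% of all pairs of a gene and a group had an interval below 0 and 7.55% above. The share of all genes with 1 sign in as many groups was not computed. Among the cells with Xist only, Hdac8 was higher in the library labelled PADI4 cKO (0.18, 0.12 to 0.24), as in the IRS-like (0.35) and ORS-like cells (0.29), although it differed by 0.02 over all cells. Hdac6, the other X-linked member, was at 11.7 and 11.6 CPM in the Xist and Y-linked cells of the PADI4 WT library. Over the 76 pairs that could be compared in the cells with Xist only, 3 lay above 0.5 and 2 below −0.5, beside 3.9% and 2.29% of 89509 pairs of all genes. Each of these 5 involved Hdac5, Hdac6, or Hdac7 with 15 to 44 UMIs in the PADI4 WT cells, and 1 of the intervals left out 0, for Hdac6 in cluster 4 (−0.65, −1.14 to −0.12).

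**Figure D5:**
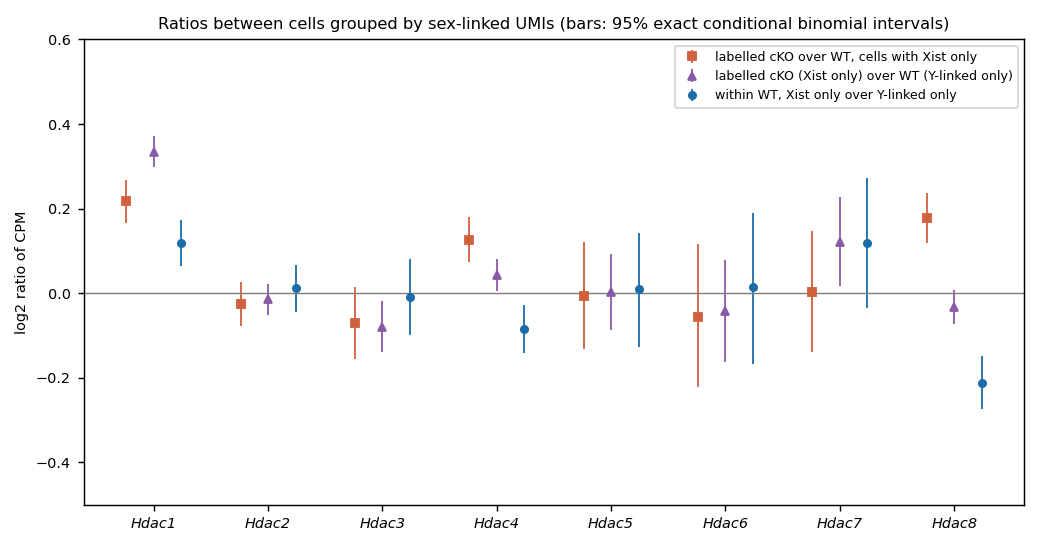
Log2 ratios of CPM (vertical axis) of Hdac1 to Hdac8 over all epithelial cells, between the libraries in cells with Xist only (squares), between cells labelled PADI4 cKO with Xist only and PADI4 WT cells with Y-linked UMIs only (triangles), and within the PADI4 WT library (circles), with 95% exact conditional binomial intervals. Hdac1 is above 0 in all 3, while Hdac8 is at 0.18 in the first and −0.21 in the last.

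The partners of the deacetylases were counted in 10 lists, with the same limits and groups. Of the class I complexes, NuRD (most UMIs for the remodeler Chd4, 293 CPM in the PADI4 WT library) had 0 pairs above 0.5 and 3 below −0.5 of 153 compared, 2 of them Chd3 and 1 Mbd2. Sin3 (Arid4b, 197 CPM) had 0 and 0 of 158, CoREST (Phf21a, 179 CPM) 0 and 1 of 106, and the NCoR/SMRT complex of HDAC3 (Ncor1, 305 CPM) 0 and 0 of 64. The mitotic deacetylase complex MiDAC (Trerf1, 93.7 CPM) had 1 and 1 of 36.

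For the class IIa enzymes, the MEF2 factors (Mef2a, 157 CPM) had 0 pairs above 0.5 and 1 below −0.5 of 32, the 14-3-3 proteins (Ywhae, 577 CPM) 0 and 0 of 91, and the kinases that act on class IIa enzymes (Sik3, 261 CPM) 3 and 4 of 88, spread over Prkd1, Prkd2, Camk1d, Camk2d, and Camk4. The other deacetylases (Sirt1, 31.9 CPM; Hdac10 had 306 UMIs in each library) had 0 and 2 of 75, and the opposing histone acetyltransferases (Crebbp, 221 CPM) 2 and 1 of 120. Medians of the lists over the epithelium lay between −0.08 and 0.02, beside −0.01 for all genes, and the most any list had past either limit was 4.55% of its pairs, for the kinases, beside 1.97% above and 2.58% below for all pairs.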

How the data were processed

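Single-cell RNA sequencing was performed on 1 PADI4 WT and 1 PADI4 cKO library with the Chromium 3′ v3.1 chemistry. The authors deposited raw counts of UMIs per gene and barcode, made with Cell Ranger 7.1.0 per the file headers and mm10 per the labels, before any filter on droplets (143938990 and 143945294 UMIs). Whether introns were counted is not given in the sources used here. CellBender, which the study used, was not run.

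Barcodes were kept with 2000 to 60000 UMIs and 1000 to 8000 genes, mitochondrial UMIs up to 20%, hemoglobin UMIs up to 1%, and a ribosomal share between the 5th and 99th percentile (8070 and 7393 cells). Cells were clustered in Scanpy 1.11.5 on 1000 variable genes without the members (50 components, 15 neighbors, Leiden resolution 1.0) after regression of cell cycle scores, and 76 fibroblast-like and 36 melanocyte-like cells were left out. Clusters were named where 3 or more markers of a list reached 5 CPM and 1.5 times the level of other cells, no other list had as many such markers or more of its markers among the 10 leading genes, and neither library held 90% or more of the cells; LPC and GL were not given to a cluster led by a Krtap gene. Doublets were scored with Scrublet (256 and 297 calls) and kept; the threshold chosen automatically in the PADI4 WT library called 2 cells, and the value found for the second library (0.204) replaced it.

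UMIs were summed per group and library. Log2 ratios of CPM were formed with 0.5 UMI added, with exact Poisson, binomial, or conditional binomial 95% intervals (SciPy 1.17.1); PCR copies are collapsed by UMI, and the intervals cover counting error only. A ratio needed 100 UMIs, and a group 50 cells in each library. Named genes were the 9 members, the partner with the most UMIs per list, partners past 0.5 with 1 sign in 50% or more of their groups (0 qualified; others are named after their values were seen), and the 3 genes most like each member with a mean of 10 CPM or more over the groups in each library. The members and lists were chosen with earlier results of these data known. Gene positions came from GENCODE vM21, which matched 32235 of 32285 IDs. On simulated data with LPC-like totals, 100% of genes raised 2-fold lay above 0.5, 99% of lowered genes lay below −0.5, and 0.326% and 0.316% of the unchanged genes, of 10637 genes in all, lay past these limits. With Cx-like totals (8099 genes) the values were 100%, 98%, 0.633%, and 0.608%. These draws held counting error alone, with no variation between cells, mice, or libraries. In the real LPC-like cells, 2.28% of the 10637 genes lay above 0.5 and 1.58% below −0.5.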

Additional observations from a re-analysis of the deposited data

How the results depend on the processing

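No paired analysis was possible because each genotype has 1 library, and no replicate could be left out. Of 15 alternatives chosen at the outset and 1 added after seeing the data (without cluster 9), 13 were computed for the Hdac1 ratio over the epithelium, and in these it ran from 0.22 to 0.31; the marker gate and leaving out cluster 9 change the groups only and left it as it was. Over the same 13, Hdac2 ran from −0.03 to 0.00, Hdac3 from −0.10 to 0.06, Hdac4 from 0.03 to 0.13, Hdac5 from −0.11 to 0.00, Hdac6 from −0.26 to −0.02, Hdac7 from 0.00 to 0.09, and Hdac8 from 0.02 to 0.18. The number of member and group pairs above 0.5, 0 as reported, was 1 with a minimum of 4000 UMIs per cell, resolution 0.5, doublets left out, thinning to 2000 UMIs, centering on the median, or without mitochondrial and ribosomal genes, 2 with empty-droplet UMIs subtracted or a minimum of 50 UMIs per gene, 3 without cell cycle correction or in cells with Xist only, and 18 where the interval alone was asked to exclude 0. Below −0.5 the number was 2 with thinning or with Xist only and 1 by interval. The Hdac1 ratio was 0.24 with thinning and 0.22 in cells with Xist only. The 2.71-fold range of Hdac1 between groups became 1.52-fold without doublets and 1.58-fold with Xist only, where the SG-like cells fell below 50 per library, 1.40-fold with single cells gated by markers, where 4 groups were left, and 4.01-fold with thinning. The Hdac1 share of the pair was 48.3% with thinning and 51.0% with Xist only. The cause of the other changes was not tested. Hdac9, with 104 and 179 UMIs, had a ratio of 2.69 with empty-droplet UMIs subtracted and 0.36 (−0.18 to 0.98) in cells with Xist only. Depth limits Hdac5, Hdac6, Hdac7, and Hdac9 most, since 23 of the 117 pairs had under 100 UMIs.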
